A study of Mus musculus with 12 samples.

Results

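The genotype by surgery interaction asks of each gene whether the change between transverse aortic constriction (TAC) and sham surgery differed between Adam12 knockout and wild type mouse hearts. It is the knockout TAC minus knockout sham difference, less the wild type TAC minus wild type sham difference, on deposited log2 signals. A value of 1 means that the TAC change was larger, or less negative, in the knockout by a factor of 2. All 12 arrays of the series entered, and the genes were the 26989 symbols that had a probe set of their own, read on the brightest such probe set, out of 58795 probe sets that are not controls.

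The mice were male C57BL/6J at 10 weeks of age, and whole-heart RNA was taken 2 weeks after surgery. There were 3 hearts in each of 4 groups, wild type sham, wild type TAC, A12KO sham and A12KO TAC, and each heart had an array to itself. The replicates were labelled biological. How the knockout allele was made, and from which litters the mice came, was not given in the sources used here.

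TAC narrows the aortic arch, so the left ventricle pumps against a raised pressure. Heart muscle cells then enlarge and turn on genes of the fetal heart, fibroblasts lay down matrix, and the use of fatty acids falls. ADAM12 is a membrane-anchored metalloprotease that can release growth factors such as heparin-binding EGF from the cell surface and that binds integrins and syndecans.

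The probe set of Adam12 also carries the symbol 5830403F22Rik and was dim. It read 4.54, 4.46 and 4.61 in wild type sham hearts, 4.56, 4.73 and 4.80 in wild type TAC hearts, 4.33, 4.40 and 4.32 in A12KO sham hearts and 4.25, 4.40 and 4.36 in A12KO TAC hearts. The knockout arrays all lay below the wild type arrays, by a small margin close to the array's background. Its interaction was -0.18 ± 0.13 (limma SE, adjusted p = 0.706 in a fit of all probe sets). Array medians ran from 4.93 to 5.10 over all probe sets and from 2.96 to 3.17 over background probe sets. The wild type TAC hearts stood apart from one another for many matrix genes, replicate 2 reading highest and replicate 3 lowest, and the effect of this spread on the calls is given with them.

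No gene passed for the interaction with all 12 arrays. The count was 0 of 26989 genes (0%) at an adjusted p under 0.05 in limma, and the smallest adjusted p was 0.259. At an unadjusted p under 0.05 there were 2962 genes, where 5% of the genes tested is 1349. Of these, 1362 had a positive interaction (5.05% of genes tested) and 1600 a negative one (5.93%). This split depended on scaling: with each array centred on its median the positive share went from 45.98% to 65.56%. Genes with a positive interaction at that level were brighter, with a median level of 7.44, than those with a negative one, at 6.00, while all genes had a median of 5.42.

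The precision was that of 3 arrays a group. The median standard error of the interaction was 0.16, and the median 95% interval reached 0.34 to either side. For 24775 genes (91.8%) the whole interval lay between -1 and 1, so that for these a difference of 2 times in the TAC change lay outside it. For the other 2214 genes the interval reached past 1 in at least 1 direction, and for some of them, such as Txnip and Serpina3n described below, it lay wholly above 1. Many of the 26989 genes were dim, with no group mean above the background limit of 5.64, the 95th percentile of background probe sets. In a fit without them, 11776 of 13167 genes had an interval between -1 and 1. For dim genes a narrow interval may reflect background signal and does not exclude a difference in RNA.

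**Figure D1:**
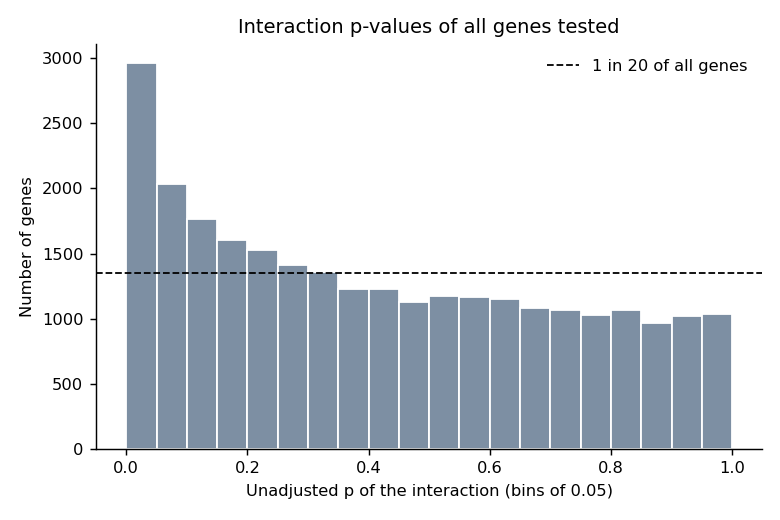
Histogram of the unadjusted limma p-values of the interaction for 26989 genes; the horizontal axis is the p-value and the vertical axis the number of genes. Small p-values are more frequent than the flat level (dashed), with 2962 genes under 0.05, yet none passed after adjustment.

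One array decided the count. Without wild type TAC replicate 2, 151 genes passed in limma, 117 with a positive interaction (0.434% of genes tested) and 34 with a negative one (0.126%), and the smallest adjusted p was 0.0019. Without any 1 of the other 11 arrays the count was 0. In that fit the wild type TAC group has 2 arrays. The genes that passed there are named below beside their values over all arrays, as the same measure in fewer arrays and not as a second test.

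Wild type TAC replicate 2 stood nearest to the knockout TAC hearts for many of those genes. Postn, the matricellular protein periostin of activated fibroblasts, read 11.99, 11.80 and 11.65 in wild type sham hearts and 14.09, 15.74 and 13.29 after TAC. In the knockout it read 12.02, 11.85 and 11.79 after sham and 16.38, 16.78 and 16.21 after TAC. The knockout TAC hearts lay above the wild type TAC hearts without overlap, while the sham hearts overlapped. The interaction was 2.02 ± 0.64 over all arrays (adjusted p = 0.290) and 2.70 ± 0.30 without replicate 2 (adjusted p = 0.0084). Leaving out replicate 3, the lowest wild type TAC heart, would lower the interaction instead.

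The interaction rests on 4 group means, so the same value can come from very different patterns. In the knockout, TAC raised 1910 genes (7.08%) and lowered 1534 (5.68%) at an adjusted p under 0.05. In wild type hearts it raised 18 (0.0667%) and lowered 30 (0.111%), a count that was 0 without any 1 of 5 of the arrays and 264 without wild type TAC replicate 3. These contrasts share arrays with the interaction and are given as its parts. That a gene passed in the knockout and missed in wild type hearts does not show that the genotypes differed, which is what the interaction tests.

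Most genes with a small interaction p differed between the genotypes after TAC more than after sham. Of all 26989 genes tested, 16170 did so too, so this lean is partly general. Of the 485 genes with a positive interaction and an unadjusted p under 0.01, 431 (88.9%) had a larger genotype difference after TAC and 54 a larger one after sham. In 371 of them the TAC change had the same sign in both genotypes and was larger in the knockout, in 4 it was larger in wild type hearts, and in 110 the signs were opposite. Among the 408 genes with a negative interaction, 294 (72.1%) had the larger genotype difference after TAC and 114 after sham. The TAC change was of the same sign and larger in the knockout in 179, larger in wild type hearts in 1, and of opposite signs in 228.

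**Figure D2:**
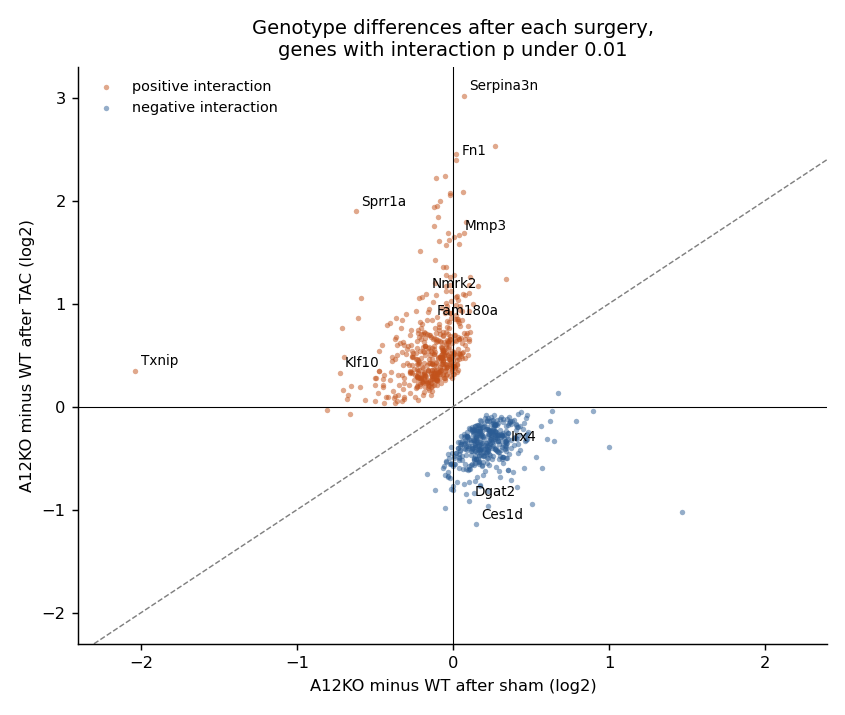
Each point is a gene with an interaction p under 0.01; the horizontal axis is the A12KO minus wild type difference after sham and the vertical axis the same difference after TAC, both on the log2 scale, and on the dashed line the 2 are equal. Positive interactions (orange) lie mostly along the vertical axis, with Serpina3n at 0.07 after sham and 3.02 after TAC, while Txnip lies far to the left at -2.03 after sham and 0.35 after TAC.

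Among genes with an interaction p under 0.01, the one with the largest genotype difference after sham was Txnip. It encodes thioredoxin-interacting protein, an arrestin-domain protein that restrains glucose uptake and inhibits thioredoxin, and its transcription is known to follow glucose through carbohydrate response elements bound by MondoA and ChREBP. Its promoter is shown because the only positive interaction above 2 among the glycolysis genes fell on it. The RefSeq window of mouse build GRCm38.p6 at chr3:96557707-96558006, plus strand, covers 250 bases before to 50 bases after the start of the gene, and the capitals mark the element.
Txnip: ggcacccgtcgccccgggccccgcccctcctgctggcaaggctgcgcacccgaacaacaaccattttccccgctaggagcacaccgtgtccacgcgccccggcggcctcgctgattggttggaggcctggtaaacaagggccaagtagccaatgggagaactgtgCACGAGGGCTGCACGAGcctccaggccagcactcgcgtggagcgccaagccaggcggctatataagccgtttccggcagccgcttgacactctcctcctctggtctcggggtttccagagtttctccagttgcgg

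The element was searched as CACGNG, any 5 bases, then CNCGNG, on both strands. There was 1 match, which starts 85 bases before the start of the gene, and 120 of 32851 RefSeq promoter windows of the same length (0.365%) hold one. The window also holds 2 CCAAT boxes, searched as CCAAT or ATTGG, 137 and 102 bases before the start, as do 37.4% of all windows with 1 or more. The matches overlap neither each other nor the element. They describe the sequence, and no binding was measured.

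Txnip read 17.65, 17.10 and 16.85 in wild type sham hearts and 15.12, 14.59 and 14.72 in wild type TAC hearts. It read 14.97, 14.87 and 15.66 in A12KO sham hearts and 15.16, 15.55 and 14.76 in A12KO TAC hearts. The wild type sham hearts lay above all 9 others, which overlapped. In wild type hearts Txnip fell by 2.39 on the log2 scale (SE 0.27, adjusted p = 0.036), while in the knockout the TAC difference was -0.01 ± 0.27. The interaction was 2.38 ± 0.38, with a 95% interval from 1.55 to 3.22, a 5.22-fold difference in the TAC change (adjusted p = 0.259). It was 2.27 ± 0.41 without wild type TAC replicate 2 (adjusted p = 0.045).

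Arrdc4, a paralog of Txnip that MondoA also regulates, did not share this pattern. It read 6.47, 6.34 and 6.38 in wild type sham hearts, 6.40, 6.27 and 6.32 in wild type TAC hearts, 6.11, 6.06 and 6.37 in A12KO sham hearts and 6.53, 6.85 and 6.42 in A12KO TAC hearts. The A12KO TAC hearts lay above the A12KO sham and wild type TAC hearts without overlap and overlapped the wild type sham hearts. The interaction was 0.49 ± 0.16 (adjusted p = 0.319), and Arrdc4 rose in the knockout by 0.42 ± 0.12 (adjusted p = 0.034). Its promoter window held no match to the element as searched.

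Among the 10 positive genes with the smallest p, 6 had the knockout TAC hearts above all other hearts. Nmrk2, the muscle nicotinamide riboside kinase that makes NAD, read 6.27, 6.30 and 6.32 in wild type sham hearts and 6.44, 6.98 and 6.47 after TAC. In the knockout it read 6.36, 6.03 and 5.99 after sham and 7.71, 7.93 and 7.54 after TAC. The knockout TAC hearts lay above all 9 others. Nmrk2 rose in the knockout by 1.60 ± 0.15 (adjusted p = 0.00039), its wild type TAC difference was 0.33 ± 0.15 (adjusted p = 0.409), and the interaction was 1.27 ± 0.22.

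Fam180a had the smallest p of all genes. It read 4.51, 4.35 and 4.50 in wild type sham hearts, 4.46, 4.62 and 4.50 in wild type TAC hearts, 4.15, 4.48 and 4.33 in A12KO sham hearts and 5.45, 5.28 and 5.36 in A12KO TAC hearts. Every A12KO TAC heart lay above the 9 others, though all these levels lie below the background limit of 5.64 (the 95th percentile of background probe sets). The interaction was 0.97 ± 0.13, with an interval from 0.68 to 1.27.

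Ccn5, a matricellular protein of the CCN family, read 6.28, 6.28 and 6.45, then 7.07, 7.41 and 6.87 in wild type sham and TAC hearts. It read 6.36, 6.30 and 6.31, then 8.24, 8.59 and 8.07 in A12KO sham and TAC hearts. The wild type TAC hearts were between the sham and the knockout TAC hearts, with no overlap on either side. The interaction was 1.20 ± 0.21, and without wild type TAC replicate 2 Ccn5 was among the genes that passed.

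Mmp3, the protease stromelysin-1, read 6.93, 6.87 and 6.22 in wild type sham hearts, 7.01, 6.88 and 6.43 in wild type TAC hearts, 6.94, 6.72 and 6.47 in A12KO sham hearts and 8.41, 8.29 and 8.61 in A12KO TAC hearts. The other 9 hearts overlapped, and the A12KO TAC hearts stood above them. The interaction was 1.63 ± 0.29. Mmp3 rose in the knockout by 1.72 ± 0.20 and differed by 0.10 ± 0.20 between TAC and sham in wild type hearts.

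Sprr1a, a small proline-rich protein induced in stressed heart muscle, had an interaction of 2.52 ± 0.47. It read 5.64 to 6.85 in A12KO TAC hearts, 3.95 to 5.08 in wild type TAC hearts, 3.67 to 4.29 in wild type sham hearts and 3.09 to 3.53 in A12KO sham hearts. The 9 hearts outside the A12KO TAC group all read below the background limit of 5.64, so no fold is given. The A12KO sham hearts were below the wild type sham hearts without overlap, so the genotypes differed in opposite directions after the 2 surgeries. Oaf had the same arrangement, with an interaction of 1.04 ± 0.20, a genotype difference of -0.36 ± 0.14 after sham and 0.68 ± 0.14 after TAC. For both genes the genotype difference missed the threshold after either surgery.

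Rbm8a2, Rab6b and Klf10 differed in another way, since the wild type TAC hearts were lower than the wild type sham hearts. Klf10, a zinc finger factor induced by TGF-beta, read 8.05, 7.41 and 7.60 in wild type sham hearts and 7.24, 6.94 and 7.23 after TAC. In the knockout it read 7.02, 6.97 and 6.90 after sham and 7.39, 7.39 and 7.62 after TAC. Neither pair overlapped, and the signs were opposite. Klf10 rose in the knockout by 0.50 ± 0.15 (adjusted p = 0.046), its wild type TAC difference was -0.55 ± 0.15 (adjusted p = 0.154), and the interaction was 1.06 ± 0.21.

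Rab6b, a small GTPase of Golgi transport, had an interaction of 0.83 ± 0.16, from -0.48 ± 0.11 in wild type hearts and 0.35 ± 0.11 in the knockout, neither past the threshold. Rbm8a2, a copy of the exon junction gene Rbm8a, had an interaction of 0.51 ± 0.10. It fell by 0.43 in wild type hearts (SE 0.07, adjusted p = 0.037) and differed by 0.08 ± 0.07 in the knockout. The probe sets of the 2 copies may share reads of the same RNA, which was not tested. Rbm8a itself, looked up after these values were seen, had an interaction of -0.03 ± 0.10.

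**Figure D3:**
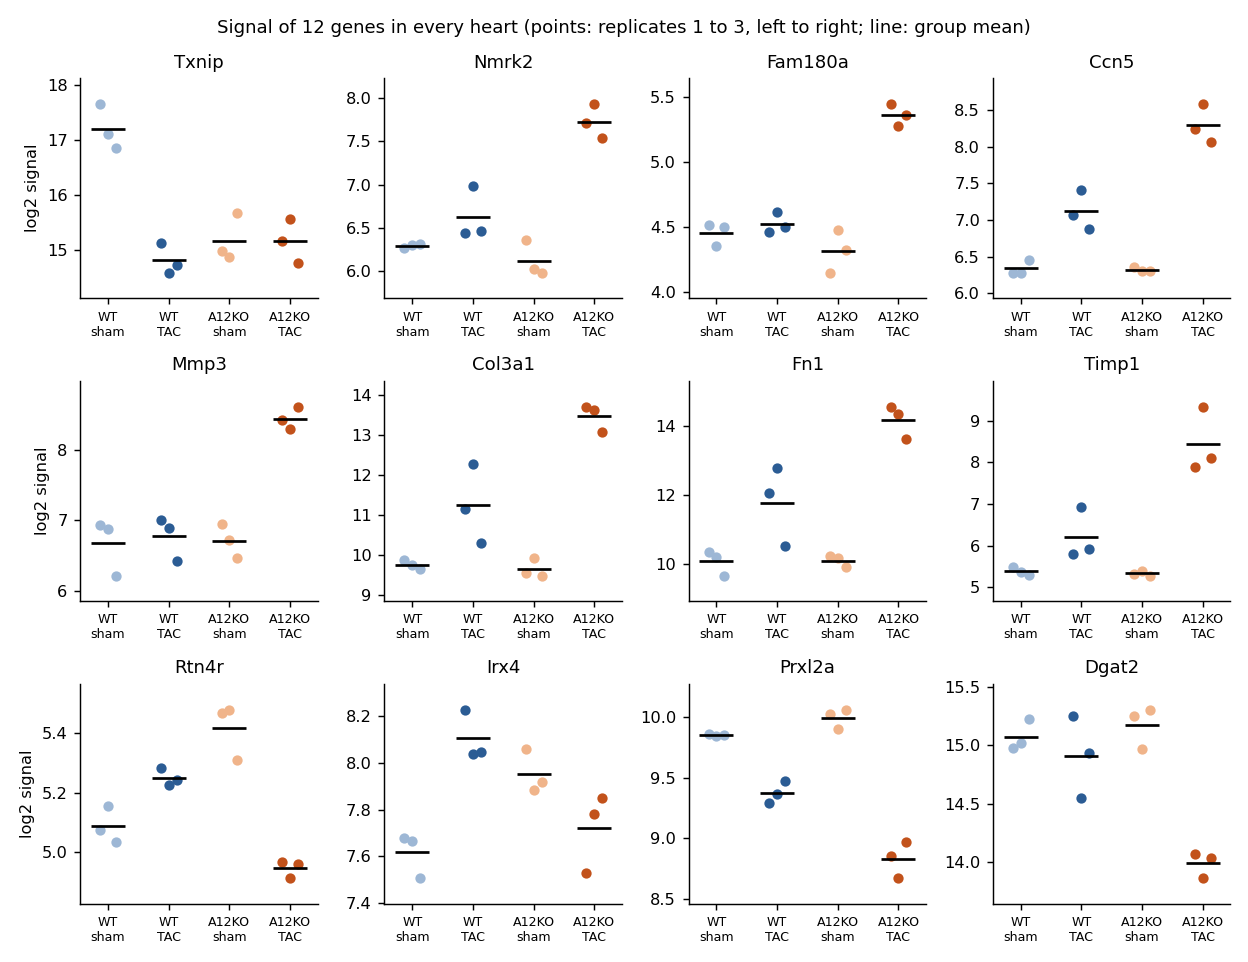
Log2 signal of 12 genes in each of the 12 hearts, by group; points are replicates 1 to 3 from left to right and lines are group means. In Nmrk2, Fam180a and Mmp3 the A12KO TAC hearts alone are high, in Txnip the wild type sham hearts alone, and in Rtn4r and Irx4 the TAC hearts lie on opposite sides of the sham hearts in the 2 genotypes.

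Among genes with an unadjusted p under 0.01 and a mean level of at least 6, the largest positive interactions were those of Serpina3n, Ltbp2, Txnip, Fn1, Col3a1 and Timp1, in that order. Serpina3n, a secreted inhibitor of serine proteases, read 9.16, 9.41 and 8.22 in wild type sham hearts and 10.42, 11.09 and 9.92 after TAC, and 9.34, 9.62 and 8.02 in A12KO sham hearts and 13.89, 14.37 and 12.22 after TAC. The lowest A12KO TAC heart, replicate 3, still lay above the highest wild type TAC heart. The interaction was 2.95 ± 0.81, a 7.72-fold difference in the TAC change, with a wide interval from 1.18 to 4.72 (adjusted p = 0.268).

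Ltbp2, a microfibril protein of the latent TGF-beta binding protein family, had 2.43 ± 0.58. Fn1, fibronectin, had 2.37 ± 0.65, Col3a1, the type III collagen chain, 2.32 ± 0.53, and Timp1, an inhibitor of metalloproteases, 2.29 ± 0.49. Col3a1 read 11.15, 12.28 and 10.30 in wild type TAC hearts and 13.70, 13.61 and 13.06 in A12KO TAC hearts, against 9.48 to 9.92 in the 6 sham hearts. The wild type TAC hearts were spread widely between the sham and the knockout TAC hearts. Col3a1 rose in the knockout by 3.81 ± 0.38 (adjusted p = 0.00039), and its wild type TAC difference was 1.49 ± 0.38 (adjusted p = 0.134). Without replicate 2 the interaction was 2.84 ± 0.34 (adjusted p = 0.010). Leaving out replicate 3, the lowest wild type TAC heart, would lower it instead.

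Matricellular proteins and collagens had the highest medians of the 40 lists examined. For comparison with each list, 11122 interactions were positive and 15867 negative over all genes tested. All 18 collagens measured had a positive interaction, from 0.19 to 2.32, with a median of 1.07 where the median of all genes was -0.04. Of these, 14 had an unadjusted p under 0.05 in the positive direction, against the 5.05% of all genes, and 0 in the negative. After TAC the A12KO hearts lay above the wild type hearts without overlap for 15 of the 18, where 7.91% of all genes did so and 11.3% lay below without overlap. After sham 1 of the 18 lay above and 1 below, against 6.43% and 5.9% of all genes. In the knockout 16 of the 18 rose, against 7.08% of all genes. In wild type hearts 0 passed, where 0.0667% of all genes rose and 0.111% fell, so a count of 0 is close to the share of all genes.

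The list median of the collagens came from a TAC change of 2.02 in the knockout and 0.86 in wild type hearts. By the genotype difference it was 1.14 after TAC and -0.03 after sham. Without wild type TAC replicate 2, 12 of the 18 passed for a positive interaction, against 0.434% of all genes: the fibrillar chains Col1a1, Col1a2, Col3a1, Col5a1 and Col5a2, the basement membrane chains Col4a1 and Col4a2, the microfibril chains Col6a1, Col6a2 and Col6a3, and Col12a1 and Col15a1. Over all arrays the interaction was 2.08 ± 0.59 for Col1a1, 1.32 ± 0.30 for Col6a1, 1.72 ± 0.41 for Col5a2 and 1.10 ± 0.29 for Col6a3.

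The 30 matricellular and other matrix proteins behaved alike. All had a positive interaction, from 0.38 to 2.93, with a median of 1.22. For 22 the unadjusted p was under 0.05, against 5.05% of all genes in that direction. The highest was Comp, cartilage oligomeric matrix protein, at 2.93 ± 0.96. The members with the smallest p were Ccn5, Tnc at 1.94 ± 0.39, Fbln2 at 0.87 ± 0.20 and Ltbp2. Tnc encodes tenascin-C, which is laid down in injured myocardium, and Fbln2 encodes fibulin-2 of elastic fibres. The list mean per heart was 10.02, 9.90 and 9.64 in wild type sham hearts, 10.59, 11.50 and 9.90 in wild type TAC hearts, 9.95, 9.86 and 9.74 in A12KO sham hearts and 12.15, 12.04 and 11.80 in A12KO TAC hearts.

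Wild type TAC replicate 3 thus read within the sham range for this list and replicate 2 near the A12KO TAC hearts, while the A12KO TAC hearts lay between 11.80 and 12.15. In the knockout 24 of the 30 rose, against 7.08% of all genes. Without wild type TAC replicate 2, 12 of the 30 passed for a positive interaction, against 0.434% of all genes, among them Postn, the thrombospondins Thbs1 and Thbs4, Ccn2, Sparc and Cilp.

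Collagen processing enzymes had a median of 0.64, with 14 of 15 positive. Of the positive ones 8 had an unadjusted p under 0.05, against 5.05% of all genes. Plod2, a lysyl hydroxylase, had 0.74 ± 0.17, Bmp1, the procollagen C-proteinase, 0.83 ± 0.22, and the crosslinking enzymes Loxl3 and Loxl1 had 1.64 ± 0.44 and 1.54 ± 0.44. In the knockout 12 of the 15 rose, these 4 among them, against 7.08% of all genes. Without wild type TAC replicate 3 the list median was 0.37.

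Metalloproteases and their inhibitors had a median of 0.45, with 12 of 15 positive. An unadjusted p under 0.05 was reached by 7, all positive, against 5.05% of all genes. Beside Mmp3 and Timp1, Mmp14, the membrane collagenase, had 1.62 ± 0.49 and Mmp19 had 0.67 ± 0.17. The 10 other ADAM proteases, relatives of the deleted gene, had a median of 0.16 that was 0.05 without wild type TAC replicate 3 and 0.01 with arrays weighted by quality. Adam10, the main sheddase of many receptors, read 11.71 to 11.79 in wild type TAC hearts and 11.99 to 12.15 in A12KO TAC hearts, with an interaction of 0.39 ± 0.09, and Adam9 had 0.48 ± 0.13. Adam17, which releases TNF and EGF ligands, had 0.30 ± 0.13. In the knockout 4 of the 10 rose, these 3 among them, against 7.08% of all genes. Of the 10, 1 fell, Adam22 at -0.47, against 5.68% of all genes.

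Growth factor lists lay nearer to zero than the matrix. TGF-beta and BMP signalling had a median of 0.20, with 19 of 23 positive. On the positive side 7 had an unadjusted p under 0.05, against 5.05% of all genes. The receptors Tgfbr1 and Tgfbr2 had 0.72 ± 0.17 and 0.75 ± 0.20, the ligands Tgfb1 and Tgfb2 had 0.67 ± 0.17 and 1.14 ± 0.39, and Fstl1, a secreted glycoprotein, had 1.61 ± 0.43. These ligand and receptor genes rose in the knockout and did not pass for TAC in wild type hearts. Another receptor of the list, Tgfbr3, had a knockout TAC difference of -0.81 (limma adjusted p = 0.0033). Tgfb2 read 8.22, 9.45 and 8.18 in wild type TAC hearts and 9.59, 9.79 and 9.53 in A12KO TAC hearts, so replicate 2 again lay next to the knockout.

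EGF ligands and ERBB receptors, the pathway of the growth factors that ADAM12 can release, had a median of 0.06, and 2 of 13 had a positive interaction with an unadjusted p under 0.05, against 5.05% of all genes. Ereg, the ligand epiregulin, had 0.93 ± 0.30 and the receptor Egfr 0.89 ± 0.29. Egfr read 8.34, 8.09 and 8.13 in wild type sham hearts, 7.56 to 8.55 after TAC, 8.10, 8.05 and 7.85 in A12KO sham hearts and 8.94, 8.70 and 8.58 after TAC. The A12KO TAC hearts lay just above the rest. Both Ereg and Egfr rose in the knockout and passed for the interaction without wild type TAC replicate 2. In the knockout 2 of the 13 rose, against 7.08% of all genes, and 2 fell, against 5.68%. Those that fell were the ligand Egf at -0.50 and the receptor Erbb4 at -0.84. The ligand Hbegf was not analysed here.

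The IGF axis had a median of 0.45 over 12 genes, with Igf1 at 0.58 ± 0.28 and the binding protein Igfbp4 at 0.77 ± 0.24. Pappa, the protease that cleaves IGF binding proteins, had 0.37 ± 0.11, from 0.24 in the knockout and -0.13 in wild type hearts, neither past the threshold. Integrins had a median of 0.34, with the fibronectin receptor subunit Itga5 at 0.82 ± 0.20 and Itgb1, the common beta chain, at 0.45 ± 0.11, and Itgb6 alone past an unadjusted p of 0.05 in the negative direction at -0.68 ± 0.20. WNT signalling had a median of 0.04, which was negative without A12KO sham replicate 2 or A12KO TAC replicate 1, and its secreted inhibitors were divided. Frzb and Sfrp1 had 2.06 ± 0.61 and 1.87 ± 0.56, Dkk3 and Sfrp2 had 1.29 ± 0.68 and 0.65 ± 0.35, and Sfrp4, Wif1 and Dkk2 had 0.03 ± 0.16, 0.08 ± 0.42 and -0.04 ± 0.20.

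The fetal and hypertrophy genes had a median of 0.65, with 13 of 14 positive. Of the positive ones 5 had an unadjusted p under 0.05, against 5.05% of all genes. The list median was 0.39 without wild type TAC replicate 1. Acta1, a skeletal actin that belongs to that fetal program, read 13.62, 14.42 and 14.07 in wild type sham hearts and 15.71, 17.09 and 16.34 after TAC, and 14.38, 13.47 and 13.76 in A12KO sham hearts and 16.21, 17.11 and 17.20 after TAC. The TAC hearts of both genotypes overlapped. It rose in wild type hearts by 2.35 ± 0.37 and in the knockout by 2.97 ± 0.37, and the interaction was 0.63 ± 0.53, with an interval from -0.53 to 1.79.

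Nppa, the atrial natriuretic peptide, had 0.66 ± 0.66 and an interval from -0.78 to 2.11, so its size was not settled. It read 17.44 to 19.47 in the 6 sham hearts and 19.66 to 19.91 in A12KO TAC hearts, close to the highest value in the table, 19.93. Nppb, the ventricular natriuretic peptide, had 1.34 ± 0.45, and Myh7, the slow myosin chain, 0.90 ± 0.36. Myh7 read 13.68, 15.02 and 14.11 in wild type TAC hearts and 15.32, 14.98 and 15.07 in A12KO TAC hearts, and replicate 2 lay within the knockout range. Enah and Actn1, actin-binding proteins of the same list, had 0.81 ± 0.25 and 0.98 ± 0.33.

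Fatty acid genes mostly had interactions of the opposite sign. Of 23 fatty acid genes, 21 were negative and 15 had an unadjusted p under 0.05 in that direction, against 5.93% of all genes, with a median of -0.33. The median TAC change was -0.71 in the knockout and -0.35 in wild type hearts, 20 genes fell in the knockout (5.68% of all genes) and 2 in wild type hearts (0.111% of all genes). After TAC the A12KO hearts lay below the wild type hearts without overlap for 14 of the 23, against 11.3% of all genes. Hadh and Cpt2, enzymes of beta-oxidation and of carnitine transport, had -0.51 ± 0.13 and -0.70 ± 0.19, and Acot2, a mitochondrial acyl-CoA thioesterase, -1.05 ± 0.33.

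Cpt2 read 13.82, 13.68 and 13.77 in wild type sham hearts, 13.73, 13.19 and 13.28 after TAC, 13.99, 13.72 and 14.06 in A12KO sham hearts and 12.75, 12.94 and 12.90 after TAC. The A12KO TAC hearts were below all 9 others. The mean of the fatty acid list per heart was 13.92, 13.60 and 13.76 in wild type TAC hearts and 13.42, 13.38 and 13.46 in A12KO TAC hearts, against 14.14 to 14.45 in the sham hearts. All wild type TAC hearts lay below the sham hearts and above the A12KO TAC hearts for this list mean. No gene of this list passed for the interaction without wild type TAC replicate 2. Of all genes 0.126% passed there on the negative side, so a count of 0 is close to that share.

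Breakdown of branched-chain amino acids had a median of -0.36, with 18 of 19 negative. On the negative side 11 had an unadjusted p under 0.05, against 5.93% of all genes. In the knockout 17 fell, against 5.68% of all genes, and 0 passed in wild type hearts, where 0.111% of all genes fell. Ivd, isovaleryl-CoA dehydrogenase, read 12.37, 12.40 and 12.53 in wild type sham hearts, 11.65 to 12.04 after TAC, 12.60, 12.35 and 12.68 in A12KO sham hearts and 11.34, 11.13 and 11.39 after TAC. The groups stepped down without overlap from sham to wild type TAC to A12KO TAC. Its interaction was -0.72 ± 0.17, and with Dbt, a subunit of the branched-chain dehydrogenase, at -0.69 ± 0.20, it passed without wild type TAC replicate 2.

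All 23 genes of oxidative phosphorylation had a negative interaction, from -0.59 to -0.09, with a median of -0.22. For 7 the unadjusted p was under 0.05, against 5.93% of all genes in that direction. The complex I subunits Ndufs3, Ndufa4 and Ndufa5 had -0.33 ± 0.10, -0.37 ± 0.12 and -0.49 ± 0.16. In the knockout 20 of the 23 fell, against 5.68% of all genes, and 0 passed in wild type hearts, where 0.111% of all genes fell.

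**Figure D4:**
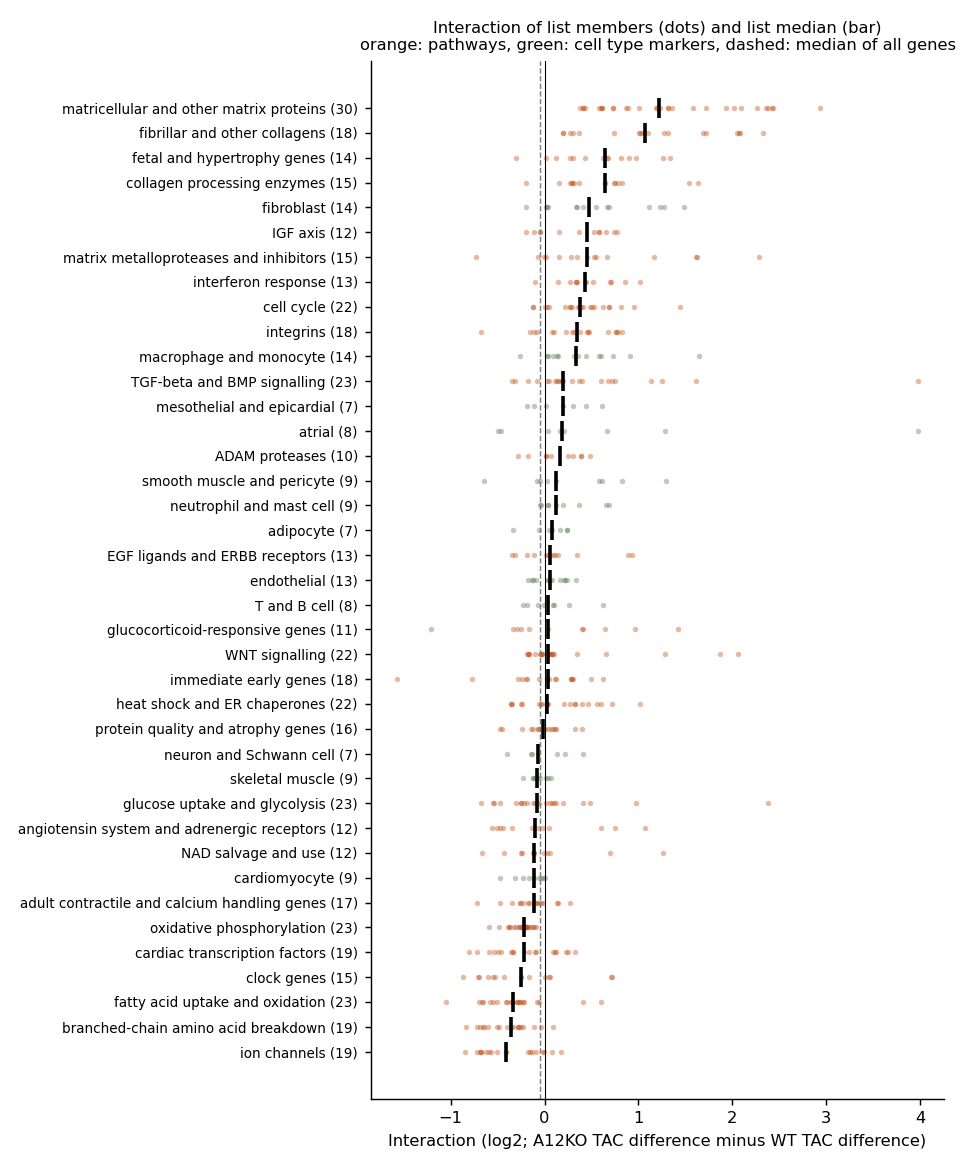
Interaction of each measured member (dots) and the list median (bar) for 27 pathway lists (orange) and cell type marker lists (green). The number of members is in brackets. Of the 13 marker lists, that of red blood cells, with 2 measured members, is not drawn. The horizontal axis is the interaction on the log2 scale and the dashed line the median of all genes, -0.04. Matrix and collagen lists lie to the right at medians of 1.22 and 1.07, and fatty acid, amino acid and ion channel lists to the left at -0.33, -0.36 and -0.41.

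Glucose genes showed no shared direction. At an unadjusted p under 0.05 there were 4 of 23 on each side, where 5.05% of all genes were positive and 5.93% negative. Beside Txnip, Pfkp, the platelet phosphofructokinase, had 0.98 ± 0.24, and the glucose transporter Slc2a4 and the dehydrogenase Ldhb had -0.68 ± 0.22 and -0.54 ± 0.15. NAD genes were likewise divided. Nmrk2 and Nnmt, which methylates nicotinamide, had 1.27 ± 0.22 and 0.69 ± 0.19, while Nampt, the rate-limiting enzyme of nicotinamide salvage, had -0.67 ± 0.20 and Nmnat1 -0.43 ± 0.15.

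Nampt read 13.70, 13.57 and 13.80 in wild type sham hearts, 13.49, 12.93 and 13.50 after TAC, 13.67, 13.69 and 13.90 in A12KO sham hearts and 12.74, 12.60 and 12.76 after TAC. The A12KO TAC hearts lay below the others. Nampt fell in the knockout by 1.05, and both Nampt and Nmrk2 passed for the interaction without wild type TAC replicate 2, in opposite directions.

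The negative genes with the smallest p were mostly dim and changed by less than the matrix genes. Rtn4r, the Nogo receptor, read 5.08, 5.16 and 5.04 in wild type sham hearts, 5.28, 5.23 and 5.24 after TAC, 5.47, 5.48 and 5.31 in A12KO sham hearts and 4.97, 4.91 and 4.96 after TAC. The 4 groups did not overlap, and the genotypes changed places between surgeries, at levels below the background limit. Rtn4r fell in the knockout by 0.47 (adjusted p = 0.0012), its wild type TAC difference was 0.16 ± 0.07, and the interaction was -0.63 ± 0.10, with an interval from -0.85 to -0.42.

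Irx4, a transcription factor of ventricular muscle, read 7.68, 7.66 and 7.51 in wild type sham hearts, 8.23, 8.04 and 8.05 after TAC, 8.06, 7.88 and 7.92 in A12KO sham hearts and 7.53, 7.78 and 7.85 after TAC. TAC hearts were above sham hearts in the wild type and below them in the knockout, without overlap. The TAC difference was 0.49 ± 0.10 in wild type hearts and -0.23 ± 0.10 in the knockout, neither past the threshold, and the interaction was -0.72 ± 0.14. Smim11, a small membrane protein, had a like arrangement at -0.77 ± 0.15.

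Prxl2a, a peroxiredoxin-like protein, was the brightest of this set after Smim11. It read 9.86, 9.85 and 9.86 in wild type sham hearts, 9.29, 9.37 and 9.47 after TAC, 10.03, 9.90 and 10.06 in A12KO sham hearts and 8.86, 8.67 and 8.97 after TAC. The groups did not overlap. It fell in the knockout by 1.17, its wild type TAC difference was -0.48 ± 0.09 (adjusted p = 0.064), and the interaction was -0.69 ± 0.12. Dglucy, the mitochondrial D-glutamate cyclase, fell in both genotypes, by 1.38 in the knockout and 0.65 in wild type hearts, and had an interaction of -0.73 ± 0.15.

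Fn3k, a kinase that removes sugar from glycated proteins, Gabrr2, a GABA receptor subunit, Rapsn, which clusters acetylcholine receptors at the muscle synapse, and the antisense RNA Tsix fell in the knockout and had wild type TAC differences between -0.05 and 0.27, none past the threshold. Their interactions were -0.65 ± 0.13, -0.81 ± 0.16, -0.63 ± 0.12 and -1.02 ± 0.20. The A12KO sham hearts lay above the wild type sham hearts and the A12KO TAC hearts below the wild type TAC hearts, without overlap, for each of these 4 genes. Ybx2, an RNA-binding Y-box protein, had -0.47 ± 0.10.

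The largest negative interactions under the same limits were on Ces1d, Smco1, Clcn1, Fbp2, Acot2 and Dgat2. Ces1d, a carboxylesterase, had -1.28 ± 0.37, Smco1 -1.19 ± 0.26, the muscle chloride channel Clcn1 -1.18 ± 0.29, the muscle fructose bisphosphatase Fbp2 -1.08 ± 0.31 and Dgat2, which makes triglycerides, -1.02 ± 0.22. Dgat2 read 14.97, 15.02 and 15.22 in wild type sham hearts, 15.25, 14.54 and 14.93 after TAC, 15.25, 14.97 and 15.30 in A12KO sham hearts and 14.07, 13.86 and 14.04 after TAC. The A12KO TAC hearts alone were low. Dgat2 fell in the knockout by 1.18 (adjusted p = 0.00079), its wild type TAC difference was -0.16 ± 0.16, and without wild type TAC replicate 2 the interaction was -1.20 ± 0.18 (adjusted p = 0.024).

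Contractile, channel and transcription factor lists leaned to the negative side. Ion channels had a median of -0.41, which was -0.25 with arrays weighted by quality. In the knockout 10 of 19 fell, against 5.68% of all genes. The potassium channels Kcnj11 and Kcnk3 had -0.68 ± 0.15 and -0.72 ± 0.18. Adult contractile genes had a median of -0.11, with Tnni3, cardiac troponin I, at -0.48 ± 0.11 and the calcium-binding protein Hrc at -0.72 ± 0.17. Cardiac transcription factors had a median of -0.22, and beside Irx4 the nuclear receptors Ppara, Esrrb and Esrrg had -0.80 ± 0.25, -0.59 ± 0.17 and -0.36 ± 0.13.

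Proliferation and interferon genes were on the positive side. Cell cycle genes had a median of 0.37, with 20 of 22 positive. Of the positive ones 9 had an unadjusted p under 0.05, against 5.05% of all genes. But only 10 of the 22 had a mean above the background limit, and the list median was 0.57 without dim genes. Mcm6, a helicase subunit of DNA replication, had 0.68 ± 0.19 and cyclin A2, Ccna2, 0.81 ± 0.27. Interferon response genes had a median of 0.43, which was 0.22 without wild type TAC replicate 3, with Oas1a at 0.86 ± 0.26, Irf7 at 0.71 ± 0.23 and Bst2 at 1.02 ± 0.36. In this list 8 of 13 lay higher in A12KO TAC than wild type TAC hearts without overlap (7.91% of all genes did), and 5 lay lower in A12KO sham than wild type sham hearts (5.9% of all genes).

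Heat shock and ER chaperones had a median of 0.03, and 5 of 22 had a positive interaction with an unadjusted p under 0.05, against 5.05% of all genes, and 0 a negative one. All 5 act in the endoplasmic reticulum: the disulfide isomerases Pdia3 and Pdia6 had 0.72 ± 0.18 and 0.60 ± 0.22, the chaperone Hyou1 0.56 ± 0.23, Creld2 1.01 ± 0.42 and the calcium-binding chaperone Calr 0.32 ± 0.14. Only Pdia3 rose in the knockout, and none of the 5 passed in wild type hearts. For all 5 the genotype difference was negative after sham, from -0.44 to -0.14, and positive after TAC, from 0.18 to 0.57. Nr4a1, an immediate early nuclear receptor, had -1.57 ± 0.57, and read 7.69, 8.01 and 7.67 in wild type sham hearts against 10.12, 9.11 and 9.52 in A12KO sham hearts. The sham hearts were far apart, and the TAC hearts overlapped, at 7.82, 9.44 and 9.05 in wild type and 9.26, 8.32 and 9.40 in the knockout. Mt2, a metallothionein, had 1.42 ± 0.40. Clock genes had a median of -0.25 that ran from -0.64 to 0.01 over the alternatives, and none of the 15 had an unadjusted p under 0.05.

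The remaining lists were small or mixed. Angiotensin system and adrenergic receptor genes had a median of -0.10, with Ace, the angiotensin-converting enzyme, at 1.07 ± 0.33 and the alpha receptor Adra1b at -0.51 ± 0.14. Protein quality and atrophy genes had a median of -0.02 and glucocorticoid-responsive genes one of 0.04, and both changed sign when single arrays were left out.

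Markers of fibroblasts, and less so of macrophages, leaned to the positive side, while most other marker lists had medians near 0, and no marker passed for the interaction over all arrays. RNA came from whole hearts, so fewer cells of a type and less RNA per cell cannot be told apart. Of 14 fibroblast markers, 13 were positive, with a median of 0.48. On the positive side 8 had an unadjusted p under 0.05, against 5.05% of all genes. Their mean per heart was 10.16 to 10.31 in wild type sham, 10.19 to 10.98 in wild type TAC, 10.13 to 10.26 in A12KO sham and 10.99 to 11.26 in A12KO TAC hearts. Their summed linear signal ran from 132000 to 155000, 112000 to 183000, 124000 to 144000 and 182000 to 215000 in the same order. This marker list shares Col15a1 with the collagens and Dcn and Lum with the matrix proteins, so it is not separate from those lists. The part of fibroblast number in the matrix interactions was not tested.

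Macrophage and monocyte markers had a median of 0.34, with 13 of 14 positive. Of the positive ones 3 had an unadjusted p under 0.05, against 5.05% of all genes. Ccr2, the receptor of recruited monocytes, read 5.89, 6.08 and 5.67 in wild type sham hearts, 6.98, 6.45 and 5.98 after TAC, 5.39, 5.34 and 5.14 in A12KO sham hearts and 7.45, 8.19 and 6.94 after TAC. The TAC hearts of the genotypes overlapped and the A12KO sham hearts were lowest. Its interaction was 1.65 ± 0.42, and the summed linear signal of the list ran from 28800 to 42600 in wild type hearts and from 31800 to 47300 in knockout hearts.

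Endothelial and smooth muscle markers had medians of 0.06 and 0.12. Cardiomyocyte markers had a median of -0.11, with list means of 15.76 to 15.77 in wild type sham, 15.65 to 15.74 in wild type TAC, 15.81 to 15.84 in A12KO sham and 15.55 to 15.67 in A12KO TAC hearts. Skeletal muscle and red blood cell lists had 0 members with a mean above the background limit. T and B cells had 1 of 8, neutrophils and mast cells 2 of 9, adipocytes 2 of 7, neurons and Schwann cells 2 of 7, and mesothelium 4 of 7. Their medians lay between -0.14 and 0.20.

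Atrial markers varied most between hearts of a group. Their mean was 10.38 to 12.77 in wild type sham, 9.84 to 11.85 in wild type TAC, 10.42 to 12.93 in A12KO sham and 10.11 to 12.55 in A12KO TAC hearts. Bmp10, a growth factor of the atria, read 14.27, 12.69 and 7.88 in wild type sham hearts, 4.69, 10.42 and 14.97 after TAC, 4.89, 9.91 and 4.27 in A12KO sham hearts and 13.51, 8.34 and 4.40 after TAC. The values did not sort by group, and the interaction of 3.98 ± 4.01, the largest in size of any positive value in the table, had an interval from -4.82 to 12.78. Whether atrial tissue in the samples bears on Nppa was not tested.

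**Figure D5:**
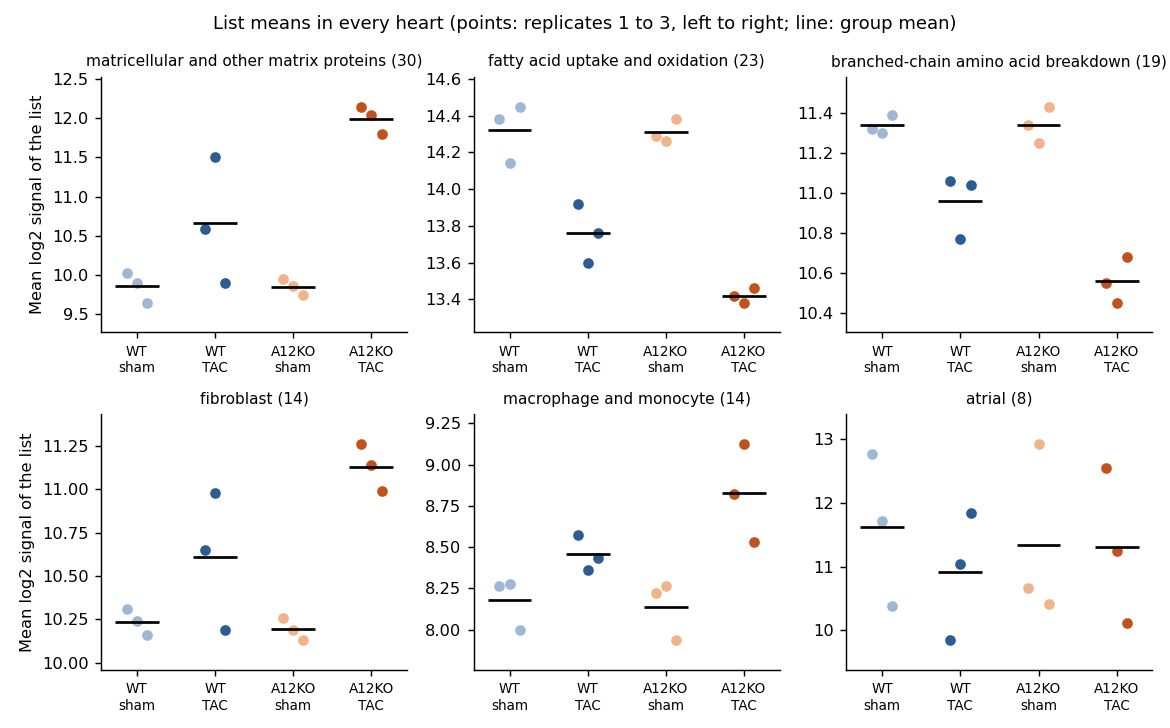
Mean log2 signal of 6 lists in each heart, by group, with the number of genes in brackets; points are replicates 1 to 3 from left to right and lines are group means. Matrix and fibroblast means spread widely over the wild type TAC hearts, with replicate 2 highest and replicate 3 lowest. Fatty acid means of these hearts run from 13.60 in replicate 2 to 13.92 in replicate 1. Atrial means spread in every group.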

How the data were processed

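The authors hybridized RNA of 12 hearts to Affymetrix Clariom D mouse arrays, from 250 ng of RNA per heart, per the labels. The deposited values are log2 signals, as read from their range of 1.27 to 19.93, and were made with Affymetrix Expression Console, per the submitters' processing notes. No source used here gives its version, normalization or summarization.

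Of 65527 probe sets, 6732 controls were left out, 27268 of the others carried 1 gene symbol, 1932 several and 29595 none in the annotation used, and 757 symbols were updated by gene identifier. The 198 genes with several probe sets were read on the brightest. Genes were fitted with limma 3.58.1 in R 4.3.3, as 1 mean per group over 12 arrays, moderated by empirical Bayes (3.29 prior and 8 residual degrees of freedom), and tested from 2 sides, with p-values adjusted by Benjamini-Hochberg over 26989 genes. No filter on dim genes was used. Errors are limma standard errors. The number of arrays limits the precision. The fit was tested on simulated data.

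Named were the 10 genes of each sign with the smallest p, the 6 largest of each sign at an unadjusted p under 0.01 and a mean level of at least 6, up to 4 members of each of 40 lists by p, and fixed heart genes. Of 735 list entries 590 were measured, 21 shared a probe set and 124 were not analysed here. The members and lists were chosen with earlier results of these data known, so their counts are descriptions, and named genes outside the rule were chosen after their values were seen. Promoter sequences are from RefSeq. Alternatives were other variance models, array weights, quantile normalization, median centring, dim genes left out, the replicate number as a block, all probe sets, means over probe sets and each array left out.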

Additional observations from a re-analysis of the deposited data

Results flagged for a closer look

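In 7 named genes all A12KO TAC hearts lay on one side of all A12KO sham hearts, while all wild type TAC hearts lay on the other side of all wild type sham hearts. The interaction was positive for Rbm8a2 (0.51), Rab6b (0.83), Klf10 (1.06) and Pappa (0.37), and negative for Rtn4r (-0.63), Irx4 (-0.72) and Smim11 (-0.77). The limma test of this difference itself did not pass for any of them, the smallest adjusted p being 0.259. Over all genes tested, 134 (0.496%) had this arrangement, 37 higher after TAC in the knockout and lower in wild type hearts and 97 the reverse. Dixon's test for a single outlying array was not run on groups of 3.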

How the results depend on the processing

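The interaction had 0 genes at an adjusted p under 0.05 in limma under each of the 8 alternatives that kept all arrays, with 2962 genes at an unadjusted p under 0.05 in the fit reported, and leaving out 1 array gave 0 to 151, the 151 without wild type TAC replicate 2. Counts at an unadjusted p under 0.05 ran from 2270 to 3466 with 1 array left out and were 5209 over all probe sets, of which more were tested. Intervals within -1 and 1 numbered 11776 of 13167 genes without dim genes and 52139 of 58795 over all probe sets. TAC in wild type hearts (48 genes) gave 352 with array weights, 9 with centring, 221 without dim genes, 266 with the replicate block and 0 to 264 with 1 array left out. TAC in the knockout (3444) gave 2098 to 3688 with 1 array left out. Over the alternatives that kept all arrays it gave 3018, with centring, to 4438, with array weights. The cause was not tested. Of 3640 values of 183 named genes, 3637 kept their sign. With 1 array left out, 3 markers reversed, Retn (-0.12 to 0.52, negative without wild type sham replicate 1), Mylpf (-0.26 to 0.021, positive without wild type TAC replicate 3) and Mcpt4 (-0.00017 to 0.34, negative without A12KO TAC replicate 1). Of 799 list medians, 38 in 12 lists changed sign. With the replicate block the interaction had 0 genes, a smallest adjusted p of 0.053 and 3775 genes at an unadjusted p under 0.05. Same-numbered arrays correlated at -0.07 to 0.32 in their deviations, 10 of 18 pairs over 0.1, and 8 of 12 arrays matched their own number best. Arrays of different number correlated at -0.27 to 0.20. As not every same-numbered pair was over 0.1 and the labels do not say what a number marks, the fit reported did not pair hearts. That rule cannot decide whether hearts of one number share an effect. Without dim genes 55.91% of 2166 genes at that level were positive. Signals near background limit small differences.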
